A study of Homo sapiens with 8 samples.

Results

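Of the 50523 merged H3K4me3 regions found on chromosomes 1 to 22 and X of MM1S multiple myeloma cells, 1584 were called in all 8 deposited lists and stood alone. No other region called in 5 or more lists lay within 100 kb of either of their edges. They are called isolated regions here, and they made up 11.5% of the 13729 regions called in all 8 lists. The remaining 12145 are called the other shared regions. The calls themselves chose the isolated regions, so their presence in every list and their distances are a description and not a finding. Gene positions on GRCh37, the build of the files, were not used here, so a lack of genes around these regions was not measured and regions are named by position.

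The treated cells had received 50 uM KDM5-C70 for 7 days (3 libraries), and the control cells the vehicle DMSO (5 libraries), for which the labels give no time. All 8 libraries came from the same established line and were precipitated with the same lot of an H3K4me3 antibody. Each library has its own list of called regions, with 17977, 32133 and 37948 regions for KDM5-C70 1 to 3 and 15323 to 32376 regions for the DMSO libraries. The labels do not say whether replicates came from separate cultures, so p-values measure only the spread between these libraries, which may be technical. KDM5-C70 1, DMSO 1 and DMSO 2 have the 3 shortest lists and called narrower regions than the other 5 libraries. This grouping is in no label and was drawn from the lists alone. Values within the set of 3 and the set of 5 libraries are given where they bear on a result.

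H3K4me3 is histone H3 carrying a trimethyl group on lysine 4. It is laid down by the SET1 and MLL methyltransferase complexes, is found mainly around active transcription start sites and the CpG islands that often hold them, and is removed by demethylases of the KDM5 family, which KDM5-C70 inhibits. A marked region with no close marked neighbour is called on its own, without sequence called for the next region running into it.

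The isolated regions lay a median of 154 kb from their nearest neighbour, with a middle range of 121 to 231 kb, against a median of 19.8 kb for the other shared regions. No neighbour lay within 200 kb of 511 of them, within 300 kb of 239, within 500 kb of 74 and within 1000 kb of 9. The farther neighbour was a median of 315 kb away, or 1.72 times the nearer distance, and more than 2 times the nearer distance in 617 of the 1580 regions with a neighbour on both sides. Along the chromosomes, 723 of the 1584 formed runs of 2 or more isolated regions that follow each other, and 861 had no isolated region next to them. No expected number was worked out. The rule partly builds such runs in, because the neighbour of an isolated region is already free on that side. Distances include any unsequenced stretch of the chromosome, which could not be separated here. The longest runs held 6 regions each, on chromosome 7 (16459942 to 18126950, 1.67 Mb) and on chromosome 12 (82152062 to 85430740, 3.28 Mb).

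The share of isolated regions differed widely between chromosomes. It was highest on chromosome X, where 102 of 451 shared regions (22.6%) were isolated, followed by chromosome 13 with 52 of 243 (21.4%) and chromosome 8 with 99 of 490 (20.2%). It was lowest on chromosome 19 with 16 of 877 (1.82%), chromosome 17 with 16 of 827 (1.93%) and chromosome 22 with 8 of 351 (2.28%). Chromosome 2 held the highest number, 147.

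**Figure D1:**
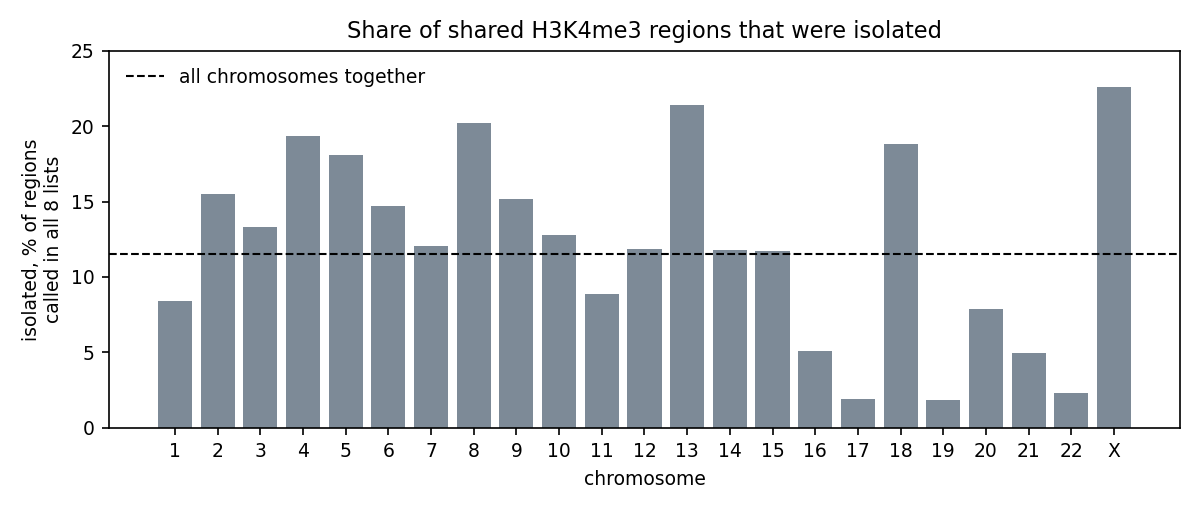
Bars give, for each chromosome, the percentage of regions called in all 8 lists that were isolated, and the dashed line marks the 11.5% of all chromosomes together. Chromosome X stands at 22.6% and chromosome 19 at 1.82%.

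Just inside the limit of 100 kb were regions on chromosome 2 (210288275 to 210290167, nearest neighbour at 100.02 kb), chromosome 8 (72272462 to 72275063, 100.08 kb) and chromosome 11 (122753199 to 122754578, 100.13 kb). Just outside were regions on chromosome 5 (95294907 to 95298048, 99.9 kb), chromosome 13 (29393428 to 29394879, 99.9 kb) and chromosome 17 (4166024 to 4168079, 99.8 kb). The 3 inside had mean called widths of 1377, 1003 and 1065 bp with KDM5-C70 and 1312, 951 and 972 bp with DMSO. The 3 outside had 2420, 1118 and 1555 bp with KDM5-C70 and 2208, 1074 and 1217 bp with DMSO.

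The 5 regions farthest from any neighbour ranged in geometric mean width from 316 bp on chromosome 7 to 2356 bp on chromosome 6. The most isolated lay on chromosome 13 (67803680 to 67805667), with neighbours 2074 kb to its left and 4043 kb to its right. It had called widths of 718, 1900 and 1988 bp in KDM5-C70 1 to 3 and of 1177, 1201, 1822, 1707 and 1550 bp in DMSO 1 to 5. KDM5-C70 1 was the narrowest there and the groups overlapped. The next lay on chromosome 6 (94126227 to 94130067, nearest neighbour at 1453 kb), where KDM5-C70 libraries averaged 2732 ± 1086 bp and DMSO libraries 2456 ± 1059 bp (SD, n = 3 and 5, also below). On chromosome 8 (89338358 to 89340833, 1400 kb) the widths were 1578 ± 644 bp with KDM5-C70 and 1501 ± 359 bp with DMSO. On chromosome 14 (79744883 to 79745975, 1312 kb) they were 830 ± 400 bp with KDM5-C70 and 820 ± 93.4 bp with DMSO, and on chromosome 7 (53339565 to 53340178, 1253 kb) 360 ± 129 bp with KDM5-C70 and 337 ± 175 bp with DMSO. In each of these 5 regions the group means differed by less than the SD of either group. The regions on chromosomes 13, 8 and 14 had no call of any kind within 100 kb in any library.

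Weak calls, merged regions called in 1 to 4 lists, were the only calls the rule allowed near isolated regions, and they were fewer there than around the other shared regions. An isolated region had a mean of 1.78 weak regions within 100 kb, against 2.56 for the other shared regions. None was found around 370 isolated regions (23.4%), against 1739 of the other shared regions (14.3%). A call of any kind lay within 5 kb of 73 isolated regions (4.61%), against 2238 of the other shared regions (18.4%), a difference the rule itself widens by barring stronger neighbours from the isolated regions only. Of the 2738 weak regions within 100 kb of an isolated one, 60.2% were called in a single list, against 56.0% of the 12627 that had only other shared regions nearby. KDM5-C70 1 to 3 called 5.88%, 28.9% and 51.1% of these 2738, and DMSO 1 to 5 called 12.9%, 1.94%, 32.2%, 24.2% and 16.1%. KDM5-C70 3, the longest list, took part in about as many of the weak regions near other shared regions (49.3%).

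The called width of a region is the number of called bases a library has in it. Isolated regions were about as wide as the others in every library. Their median width was 950.5, 1542.5 and 1602.5 bp in KDM5-C70 1 to 3 and 1056, 860, 1498.5, 1376 and 1415.5 bp in DMSO 1 to 5. The other shared regions had medians of 972, 1541 and 1579 bp in KDM5-C70 1 to 3 and of 1041, 837, 1477, 1350 and 1385 bp in DMSO 1 to 5. The isolated regions were wider in 7 of 8 libraries, all but KDM5-C70 1, by a mean of 14.9 ± 17.1 bp over all 8 (SD, n = 8 libraries). That difference is smaller than its spread between all 8 libraries, and smaller than the difference between the 2 sets of libraries. Over the DMSO libraries alone it was 23.2 ± 5.73 bp (15 to 30.5 bp), more than its spread there. Over the KDM5-C70 libraries it was 1.17 ± 22.5 bp (-21.5 to 23.5 bp). No p is given for such medians, because the members were chosen from these lists and regions of 1 library share their source.

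The spread of widths among the members was also close to that of the rest. By the geometric mean over the 8 libraries, the 10th percentile, median and 90th percentile were 675, 1237 and 1965 bp in isolated regions, against 672, 1232 and 1931 bp in the other shared regions. Fewer than 600 bp were called in 98 isolated regions (6.19%), against 812 others (6.69%), and at least 2000 bp in 136 (8.59%), against 986 others (8.12%). At least 3000 bp were called in 6 isolated regions (0.379%), against 32 others (0.263%). Ranked by the authors' fold enrichment within each list, isolated regions had a mean median percentile of 52.5 ± 0.747, against 53.1 ± 1.42 for the others (SD, n = 8 libraries).

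The 5 widest isolated regions were led by one on chromosome 7 (92462003 to 92466157). It had 2727, 3438 and 3370 bp in KDM5-C70 1 to 3 and 3928, 2737, 4119, 4059 and 4127 bp in DMSO 1 to 5. The groups met only through DMSO 2, whose 2737 bp lay below 2 of the KDM5-C70 values. A region of chromosome 4 (149363009 to 149367082) averaged 2985 ± 953 bp over KDM5-C70 and 3708 ± 485 bp over DMSO libraries. Its neighbour in width, from 15003088 to 15007053 on the same chromosome, averaged 3121 ± 107 bp with KDM5-C70 and 3436 ± 370 bp with DMSO. A region of chromosome 1 (245316532 to 245320334) averaged 3175 ± 936 bp with KDM5-C70 and 3243 ± 729 bp with DMSO. The groups overlapped in all 5.

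The other of the 5 widest, on chromosome 6 (58776237 to 58779553), ran opposite to the 2 sets. It had 3289, 3046 and 2937 bp in KDM5-C70 1 to 3 and 3300, 3317, 3119, 3033 and 3272 bp in DMSO 1 to 5. The 3 shortest lists thus gave the 3 largest widths, though KDM5-C70 1 lay close above DMSO 5. Its next neighbour on the right lay 3468 kb away, a distance that includes any unsequenced stretch. Its SD of log2 width within groups was 0.0669, where the median over isolated regions was 0.398, and its inner share was 93.6%. An SD under 0.1 was found in 16 isolated regions (1.01%), against 116 others (0.955%). The steadiest of all isolated regions was also among the narrowest, on chromosome 9 (42415901 to 42416201), with 271, 263 and 267 bp in KDM5-C70 1 to 3 and 284, 280, 274, 268 and 272 bp in DMSO 1 to 5.

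The narrowest isolated regions were called at 146 to 530 bp in every library. The shortest region in each list was 146 bp, which sets a floor. Besides the region on chromosome 9, the fourth narrowest, these were on chromosome 12 (20704295 to 20704572, 238 ± 35.9 bp with KDM5-C70 and 244 ± 22.3 bp with DMSO), chromosome 22 (40271245 to 40271573, 224 ± 33.6 bp with KDM5-C70 and 264 ± 38.8 bp with DMSO), chromosome 11 (85194944 to 85195244, 227 ± 44.0 bp with KDM5-C70 and 285 ± 15.3 bp with DMSO) and chromosome 3 (150643612 to 150644147, 315 ± 75.5 bp with KDM5-C70 and 348 ± 167 bp with DMSO). The groups overlapped in each.

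At the other end, 2 of the 3 most variable members followed the sets. On chromosome 12 (68382893 to 68386449) the called width was 152, 3105 and 1577 bp in KDM5-C70 1 to 3 and 889, 209, 2826, 2565 and 2587 bp in DMSO 1 to 5. The 3 libraries with shorter lists were all lower than the other 5, in both groups. The same held on chromosome 8 (109455009 to 109457276), with 232, 1406 and 1341 bp in KDM5-C70 1 to 3 and 367, 146, 1667, 1562 and 1543 bp in DMSO 1 to 5. The third, on chromosome 7 (124051397 to 124054106), had 146, 2710 and 2453 bp in KDM5-C70 1 to 3 and 1489, 311, 1725, 1427 and 1606 bp in DMSO 1 to 5, with DMSO 1 above DMSO 4. Over all isolated regions, KDM5-C70 1, DMSO 1 and DMSO 2 were the 3 narrowest in 1092 (68.9%), against 8657 others (71.3%). DMSO 2 alone was the narrowest in 926 isolated regions (58.5%), against 62.0% of the others. KDM5-C70 3 was the widest in 666 (42.0%), against 40.9% of the others.

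**Figure D2:**
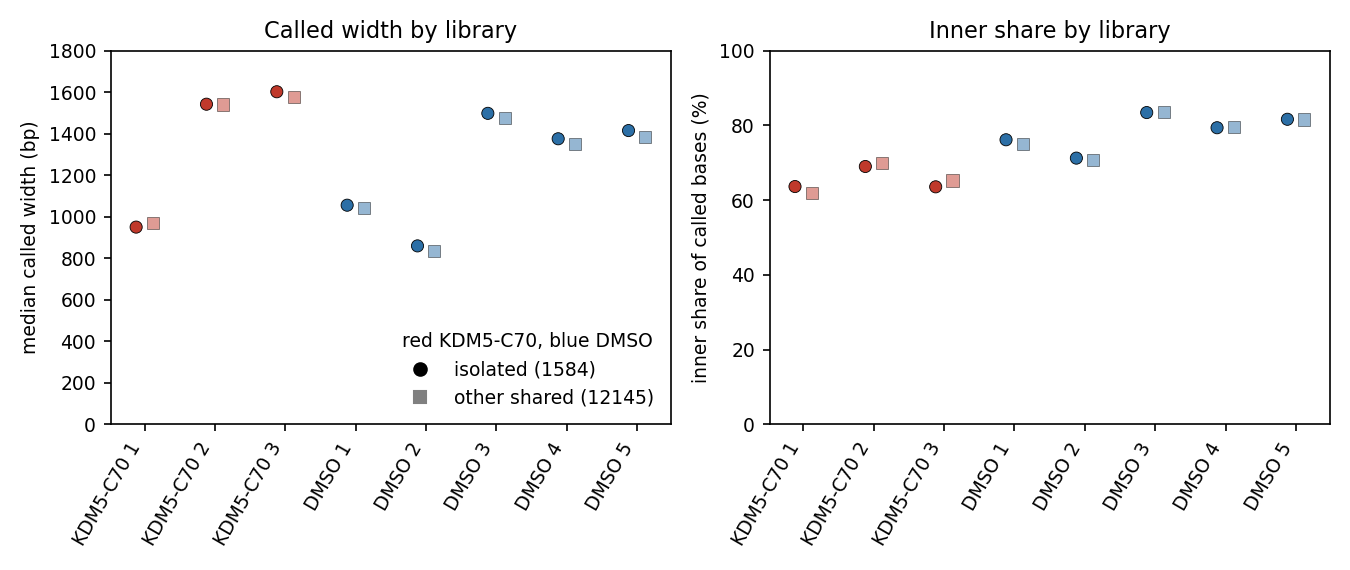
Left, median called width in bp, and right, inner share of called bases in %, for each library, with circles for isolated regions and squares for the other shared regions. Within each library the circle and the square lie close together, while KDM5-C70 1, DMSO 1 and DMSO 2 have narrower regions and all 3 KDM5-C70 libraries have lower inner shares than the DMSO libraries.

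Each deposited region holds inner segments, shorter blocks within the called region, and their share of the called bases is the inner share. With KDM5-C70 this share was lower in isolated regions, by about as much as in the other shared regions. Inner segments made up 63.7, 69.0 and 63.6% of the called bases of isolated regions in KDM5-C70 1 to 3, against 76.2, 71.3, 83.5, 79.4 and 81.7% in DMSO 1 to 5. KDM5-C70 2 at 69.0% lay just below DMSO 2 at 71.3%, so the groups did not overlap. The means were 65.4 ± 3.12% with KDM5-C70 (SD, n = 3) and 78.4 ± 4.82% with DMSO (SD, n = 5), a difference of -13.0 percentage points. The other shared regions had 65.7 ± 4.03% with KDM5-C70 and 78.1 ± 5.21% with DMSO, a difference of -12.4 points. Within the set of 3 libraries the difference was -10.1 points for isolated and -11.0 for other shared regions, and within the set of 5 libraries -15.2 points for isolated and -14.0 for the others. Isolated regions had a higher share than the others in 4 libraries and a lower one in the remaining 4.

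Region by region, all 3 KDM5-C70 inner shares lay below all 5 DMSO shares in 200 isolated regions (12.6%) and above them in 2. Over all 13729 regions the same held for 12.2% and 0.204%, so the isolated regions were near the background of 12.4% in either direction. In base pairs of inner segments, 49 isolated regions (3.09%) were lower in every KDM5-C70 library and 0 higher, against backgrounds of 2.25% and 0.0219% (2.27% in all).

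From 600 bp up, the inner share was lower in wider regions of both kinds. Under 600 bp it was 67.5 ± 6.80% with KDM5-C70 and 82.5 ± 2.21% with DMSO in isolated regions. In the other shared regions of that width it was 71.1 ± 5.15% with KDM5-C70 and 81.8 ± 6.57% with DMSO. In isolated regions with a geometric mean width of 600 to 1000 bp it was 70.9 ± 4.08% with KDM5-C70 and 82.2 ± 4.71% with DMSO, and in the other shared regions of that width 71.5 ± 3.59% with KDM5-C70 and 82.3 ± 4.57% with DMSO. In isolated regions of 2000 bp or more it was 59.1 ± 4.51% with KDM5-C70 and 72.6 ± 5.80% with DMSO, and in the others of that width 56.4 ± 4.97% with KDM5-C70 and 71.2 ± 5.92% with DMSO. The difference between treatments lay between -11.4 and -15.0 points over the 5 width classes of isolated regions, and between -10.7 and -14.8 points over those of the others. By distance it was -13.1 points at 100 to 150 kb from the nearest neighbour (761 regions), -13.0 at 150 to 300 kb (584), -11.7 at 300 to 500 kb (165) and -13.8 beyond 500 kb (74).

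**Figure D3:**
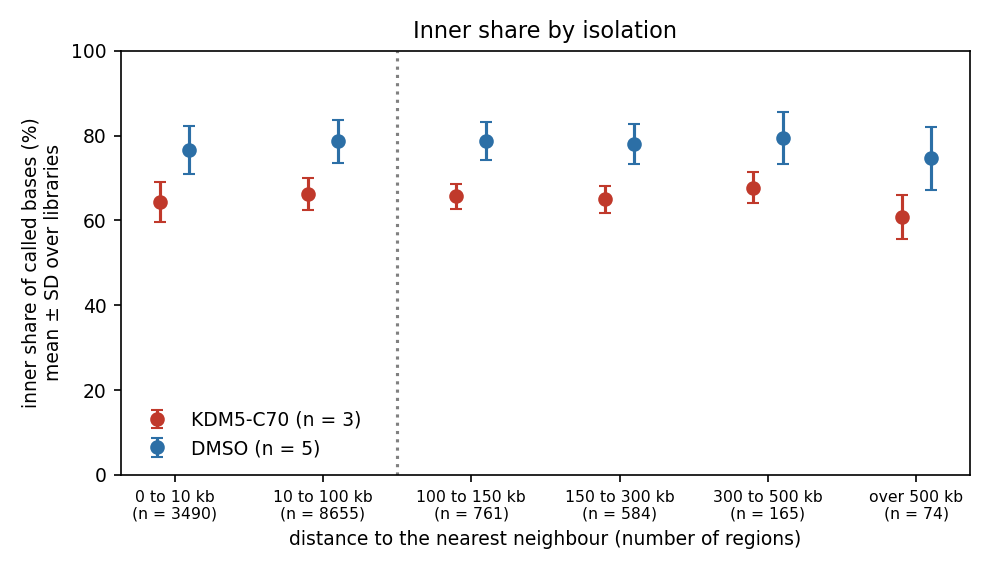
Inner share of called bases in % by distance class, as the mean over libraries with SD as error bars, for KDM5-C70 and DMSO. Classes right of the dotted line at 100 kb hold the isolated regions, and KDM5-C70 lies 11.7 to 13.8 points below DMSO in each of these 4.

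By chromosome and over the 8 libraries, the inner share of isolated regions differed most on X and 14. On chromosome X (102 isolated regions) it was 47.6, 55.3 and 48.0% in KDM5-C70 1 to 3 and 70.6, 63.0, 78.1, 72.7 and 75.7% in DMSO 1 to 5, a difference of -21.7 points. On chromosome 14 (46 isolated regions) it was 49.4, 57.3 and 39.1% in KDM5-C70 1 to 3 and 68.7, 61.4, 76.7, 70.4 and 71.2% in DMSO 1 to 5, a difference of -21.1 points. Groups did not overlap on either, which held for 16 of the 23 chromosomes. Within the set of 3 and the set of 5 libraries it was -19.2 and -23.9 points on X, and -15.6 and -24.6 points on 14. Chromosome 12 differed by -16.7 points within the set of 3 libraries, more than 14. Over the 8 libraries the other 21 chromosomes lay between -15.6 and -4.79 points. The other shared regions of X and 14 had differences of -18.7 and -17.9 points. The pattern was noticed after the values were seen, and no test was run on it. Without chromosome X the difference was -12.4 points over isolated regions and -12.3 points over the other shared regions.

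The inner share was highest on chromosomes 7 (30810620 to 30811837), 3 (187871029 to 187872423) and 1 (227505255 to 227506696), whose means over the 8 libraries were 99.7, 99.5 and 99.4%. It was lowest on chromosome 2 (217555811 to 217559284, 30.7%), chromosome 20 (15965175 to 15968325, 33.2%) and chromosome 12 (15112854 to 15115381, 35.9%). On chromosome 12 every KDM5-C70 library lacked an inner segment, while DMSO 1 to 5 had 390, 227, 1272, 1167 and 1171 bp. On chromosomes 2 and 20 the groups overlapped. No isolated region lacked inner segments in all 8 libraries, and 117 (7.39%) lacked them in at least 1, against 796 others (6.55%). KDM5-C70 1 had 69 such isolated regions (4.36%) and DMSO 2 had 56 (3.54%), while each of the remaining libraries had 0 to 9. Of the other shared regions, 3.20% lacked them in KDM5-C70 1 and 3.35% in DMSO 2.

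In called width, 0 of the 1584 isolated regions were wider and 0 narrower with KDM5-C70 by limma over all 13729 shared regions (adjusted p under 0.05), and the background was 0% as well. At an unadjusted p under 0.05 there were 8 wider and 12 narrower isolated regions, 1.26% of them, against backgrounds of 0.954% wider, 0.809% narrower and 1.76% in all. All 3 KDM5-C70 widths lay above all 5 DMSO widths in 8 isolated regions (0.505%) and below them in 7 (0.442%), against backgrounds of 0.954%, 0.605% and, in either direction, 1.56%. Without KDM5-C70 1 the groups stood apart in 551 isolated regions (34.8%), of which 533 were wider (33.6%), against backgrounds of 40.8% and 39.6%. The median log2 change of called width, KDM5-C70 over DMSO, was 0.11 in isolated and 0.15 in other shared regions, with 70.5% and 75.7% of them above 0. The sign of the isolated median rested on single libraries. Without DMSO 2 or without KDM5-C70 3 it was -0.01, with 0.03 and 0.04 in other shared regions. Without KDM5-C70 1 the medians were 0.34 in isolated and 0.37 in other shared regions, and without KDM5-C70 2 they were 0.02 and 0.05. With each library centred on its median they were -0.05 in isolated and -0.01 in other shared regions. The isolated median was the lower one in each of these fits.

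**Figure D4:**
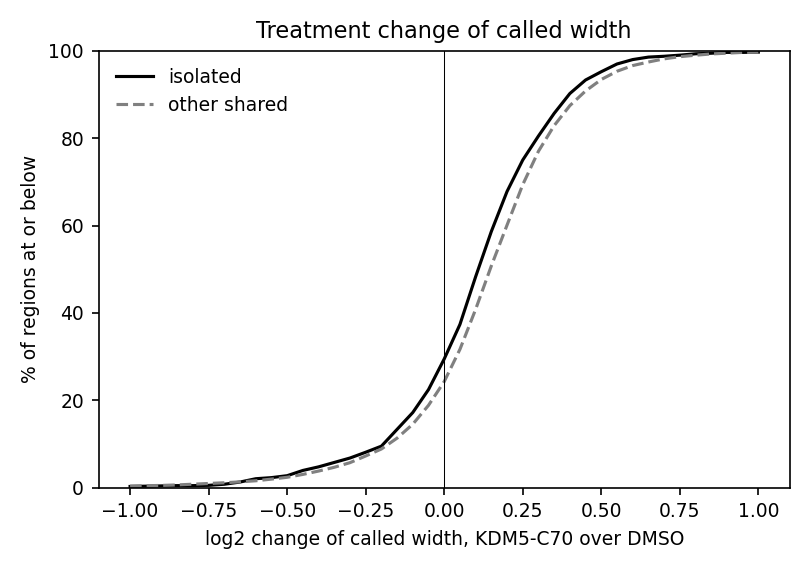
Cumulative percentage of regions by the log2 change of called width (KDM5-C70 over DMSO), for isolated regions (solid) and other shared regions (dashed). The isolated curve lies slightly to the left, with 29.5% of isolated and 24.3% of other shared regions at or below 0.

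Over the 8 libraries, a wider called region with shorter inner segments was the most frequent combination, but not within the set of 3 libraries. Over the 8, 695 isolated regions (43.9%) had a higher mean called width and a lower mean inner length with KDM5-C70, against 5104 others (42.0%). Both measures were lower in 407 isolated regions (25.7%), against 2420 others (19.9%), and both were higher in 450 (28.4%), against 4280 others (35.2%). The median difference of inner length was -75.3 bp in isolated and -41.7 bp in other shared regions. Within the set of 5 libraries these medians were -110 and -67.2 bp, and within the set of 3 libraries -90.5 and -77.5 bp. Within the set of 3 libraries the most frequent combination was a narrower region with shorter inner segments, in 691 isolated regions (43.6%) and 4561 others (37.6%). Wider regions with shorter inner segments numbered 484 isolated (30.6%) and 4111 others (33.8%) there, and the median width difference was -7 bp in isolated and 18.5 bp in other shared regions. A test of the difference between the classes was not run.

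Among the narrower isolated regions whose groups stood apart, that on chromosome 16 (79631402 to 79635998) had the smallest p. It had 998, 984 and 659 bp in KDM5-C70 1 to 3 and 2136, 2054, 3798, 2657 and 2755 bp in DMSO 1 to 5. All KDM5-C70 widths were under 1000 bp and all DMSO widths over 2000 bp, in both sets of libraries. The log2 change was -1.60 (SE 0.24, limma adjusted p = 0.668). Its inner segments covered 339, 432 and 0 bp in KDM5-C70 1 to 3 and 1691, 656, 1078, 1278 and 1547 bp in DMSO 1 to 5. Its left neighbour was 1497 kb away and its right neighbour 166 kb. With a term for the 2 sets and centred libraries it passed the threshold (limma adjusted p = 0.0352), as 1 of 2 narrower and 0 wider isolated regions, against backgrounds of 0.16% narrower, 0.0364% wider and 0.197% in all. In that fit no isolated region passed when any of the 5 DMSO libraries or KDM5-C70 3 was left out, while 10 passed without KDM5-C70 1 (1 wider and 9 narrower, 0.631%, background 0.787%) and 6 narrower ones without KDM5-C70 2 (0.379%, background 0.233%). With the replicate number as a block it passed as well (limma adjusted p = 0.0105), again as 1 of 2 narrower and 0 wider isolated regions. The backgrounds of that fit were 0.0583% narrower, 0.0146% wider and 0.0728% in all. Its largest drop between libraries of the same number was at number 3, from 3798 to 659 bp.

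The second region that passed with the set term and centring was on chromosome 14 (52117392 to 52120067). It had 1286, 1755 and 1769 bp in KDM5-C70 1 to 3 and 1920, 1850, 2659, 2500 and 2346 bp in DMSO 1 to 5. The groups did not overlap, though DMSO 2 lay close above KDM5-C70 3. The log2 change was -0.49 (SE 0.19), and its limma adjusted p was 0.994 without and 0.0352 with the set term and centring. It was split into 2 intervals in each KDM5-C70 library and was 1 interval in each DMSO library. So was the region on chromosome 7 from 16684218 to 16686702, which belongs to the run of 6 isolated regions there. That region had 1488, 1576 and 1803 bp in KDM5-C70 1 to 3 and 2101, 2022, 2284, 2399 and 2234 bp in DMSO 1 to 5, a log2 change of -0.45 (SE 0.15, limma adjusted p = 0.994). Splitting was more frequent with KDM5-C70 in both kinds of region, at 4.23 ± 0.394% of isolated regions in KDM5-C70 libraries and 1.83 ± 0.684% in DMSO libraries. Of the other shared regions, 4.61 ± 0.987% were split in KDM5-C70 libraries and 1.99 ± 0.570% in DMSO libraries.

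The last region of that run, on chromosome 7 from 18125740 to 18126950, also stood apart, with 820, 701 and 764 bp in KDM5-C70 1 to 3 and 866, 976, 1043, 1058 and 998 bp in DMSO 1 to 5. On chromosome 9 (46843514 to 46844688) the widths were 632, 181 and 235 bp in KDM5-C70 1 to 3 and 930, 1175, 982, 879 and 837 bp in DMSO 1 to 5, a log2 change of -1.67 (SE 0.40, limma adjusted p = 0.994). KDM5-C70 2 and KDM5-C70 3 were near the floor of 146 bp there. The next neighbour on the right was 19610 kb away, again with any unsequenced stretch included. On chromosome 3 (110789741 to 110792134) they were 1602, 1214 and 1107 bp in KDM5-C70 1 to 3 and 1724, 1642, 2056, 1950 and 2362 bp in DMSO 1 to 5. KDM5-C70 1 and DMSO 2 lay close to each other there. None of these 3 passed the threshold in any of the fits over all 8 libraries.

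**Figure D5:**
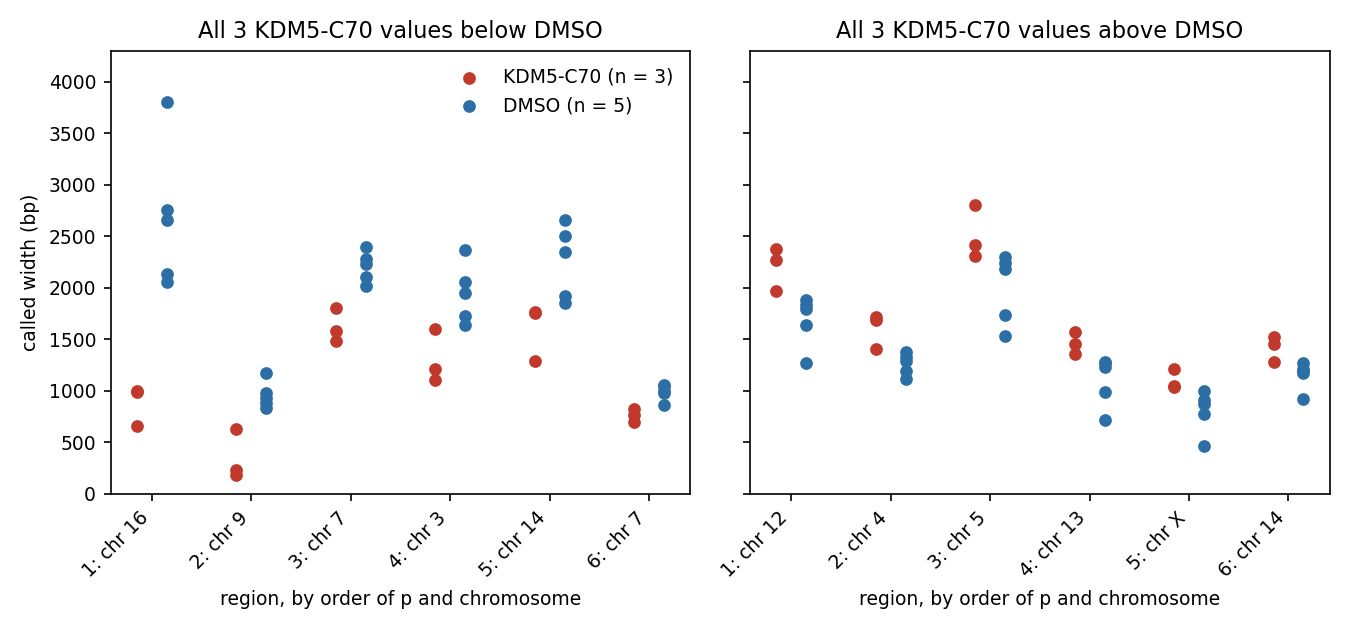
Called width in bp in every library, 3 KDM5-C70 points left of 5 DMSO points, for isolated regions in which the groups did not overlap, 6 wider and 6 narrower, taken in order of p. On chromosome 16 the KDM5-C70 points lie at 659 to 998 bp and the DMSO points at 2054 to 3798 bp.

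The wider isolated regions whose groups stood apart are given in order of p. On chromosome 12 (70758723 to 70761286) the called width was 1970, 2269 and 2379 bp in KDM5-C70 1 to 3 and 1640, 1268, 1795, 1879 and 1828 bp in DMSO 1 to 5, a log2 change of 0.40 (SE 0.18, limma adjusted p = 0.994). On chromosome 4 (183837735 to 183839632) it was 1406, 1690 and 1714 bp in KDM5-C70 1 to 3 and 1195, 1114, 1285, 1380 and 1326 bp in DMSO 1 to 5. In both regions KDM5-C70 1 lay closest to the DMSO libraries. The inner share, a percentage of that larger width, was lower with KDM5-C70. On chromosome 12 it was 68.1 ± 10.3% in KDM5-C70 libraries and 92.8 ± 5.25% in DMSO libraries. On chromosome 4 it was 59.7 ± 7.02% in KDM5-C70 libraries and 89.7 ± 10.9% in DMSO libraries. The log2 change of inner length itself was -0.057 on chromosome 12 and -0.24 on chromosome 4. In base pairs of inner segments the groups overlapped in both regions.

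The other 4 wider regions also had a larger called width and a smaller mean inner share. They lay on chromosome 5 (33439858 to 33442715, 2506 ± 260 bp with KDM5-C70 and 1997 ± 342 bp with DMSO), chromosome 13 (60737189 to 60738857, 1463 ± 104 bp with KDM5-C70 and 1095 ± 244 bp with DMSO), chromosome X (37430895 to 37432477, 1098 ± 99.9 bp with KDM5-C70 and 805 ± 207 bp with DMSO) and chromosome 14 (59104275 to 59106157, 1420 ± 126 bp with KDM5-C70 and 1153 ± 135 bp with DMSO). Their log2 changes lay between 0.31 and 0.49, and none passed the threshold (limma adjusted p = 0.994 for each). Their inner shares were 52.4, 52.8, 28.9 and 62.5% with KDM5-C70 and 72.2, 76.9, 60.6 and 76.7% with DMSO. The share is a percentage of the called width, by which these regions were chosen, so a lower share was partly built in. The log2 change of inner length was -0.18 on chromosome 5, -0.33 on chromosome 13 and -0.035 on chromosome 14. The region on chromosome X was not in that fit.

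A region chosen after its values were seen, on chromosome 6 (108878603 to 108884096), passed only with the replicate number as a block (limma adjusted p = 0.00202). It had 2773, 2386 and 407 bp in KDM5-C70 1 to 3 and 3403, 3727, 4460, 2982 and 2674 bp in DMSO 1 to 5. The groups overlapped through KDM5-C70 1 and DMSO 5, and KDM5-C70 3, the lowest, also lacked an inner segment there. Over all 8 libraries its log2 change was -1.29 (SE 0.54, limma adjusted p = 0.994). The block leaves out DMSO 4 and DMSO 5. By number, the widths fell from 3403 to 2773 bp, from 3727 to 2386 bp and from 4460 to 407 bp. Most of the change in that fit thus came from KDM5-C70 3. Its small p rests on a spread drawn from all regions, not on the spread of this region alone.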

How the data were processed

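H3K4me3 ChIP-seq was deposited as 1 list of called regions per library. The submitters' processing notes name GRCh37 and the tools MACS2 2.1.0, HOMER 4.8, Bowtie 1.1.2 and Trim Galore 0.40. Their settings, and whether a control was sequenced, are not given in the sources read for this work. Each list has 15 columns, in which the authors deposited a region's start and end, its inner blocks, a display score, a fold enrichment and p- and q-values as −log10. The display score, the fold enrichment and the −log10 values are the authors' own, made by their peak caller as deposited, and served only to describe or filter regions within a list. The lists hold no read counts, so depth is unknown, and a region missing from a list was not called there, which is no evidence that it lacked the mark.

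Regions of the 8 lists were merged where they shared at least 1 bp (Python 3.11.15, pandas 2.3.3). Called width is the sum of called bases per library, and inner share is the percentage of these in inner blocks longer than 1 bp. The log2 called width of the 13729 regions called in all 8 lists was fitted with limma 3.58.1 (R 4.3.3) with a variance trend and no centring. Limma draws each region's spread towards a trend over all regions, so a p does not rest on that region's own spread alone. P-values were adjusted by Benjamini-Hochberg over all 13729 regions, with a threshold of 0.05. The fit was first tested on simulated data. Those had a spread per region capped below the median found here and no shift shared by a library. That test therefore does not show the power of the fit on these lists. Regions named are the 5 most isolated, the 5 widest and the 5 narrowest, the 3 at each end of the inner share, the 3 most variable, the 3 on each side of the distance limit, and, of those whose groups do not overlap, the 6 with the smallest p in each direction. The members, lists and tests were chosen with earlier results of these data known. Alternatives were other distance limits, neighbour definitions, fits and left-out libraries. Gene annotation and sequence of GRCh37 were not used here, so no gene or cell type marker was assigned.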

Additional observations from a re-analysis of the deposited data

Results flagged for a closer look

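In 5 of 45 groups of 5 DMSO values searched, a single library stood apart from the other 4 by more than Dixon's 95% critical value, and chance marks about 5% of such groups. All 5 were DMSO 2, the library with the shortest list. It lacked an inner segment in 3.54% of isolated regions (0 to 0.253% in the other DMSO libraries), and in 3.35% of the other shared regions. Its mean number of inner segments was 1.41 (1.66 to 1.70 in the other DMSO libraries), and also 1.41 in the other shared regions. Its called width was 2862 bp on chromosome 4 at 149363009 to 149367082 (3742 to 4017 bp in the others), 2737 bp on chromosome 7 at 92462003 to 92466157 (3928 to 4127 bp) and 311 bp on chromosome 7 at 124051397 to 124054106 (1427 to 1725 bp). These groups share a library and are not independent. Most groups searched were widths of named regions, many of them chosen by these same widths, so the 5% does not hold for them. The flagged regions had been named as among the widest or the most variable.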

How the results depend on the processing

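The number of isolated regions followed the rule. It was 3816, 511 and 74 with limits of 50, 200 and 500 kb, 370 when a call in 1 list counted as a neighbour, 3078 when a neighbour had to be in all 8 lists, and 4 when only calls with a −log10 q-value of at least 5 were kept. It was 1609 to 2337 with 1 library left out. The median log2 called width, isolated minus other shared, was 0.016, and 0.062 at 50 kb, 0.052 with neighbours in all 8 lists, -0.018 with neighbours in 1 list and -0.029 with the q-value limit (0.013 to 0.023 with 1 library left out). The inner share difference stayed negative, at -14.8 to -11.7 points with 1 library left out (-14.5 to -10.5 in the other shared regions). With the q-value limit on 4 regions it was -9.69 (-3.18 in the other shared regions). Without chromosome X, an alternative chosen after seeing the data, it was -12.4 (-12.3 in the other shared regions). The median log2 change of called width was -0.01 to 0.34 with 1 library left out, -0.11 for inner segments only, and 0.19 with the q-value limit (-0.06 in the other shared regions).

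Limma without a set term called 0 isolated regions over the 8 libraries and with each library left out, and 2 with the replicate block. With the set term it called 0, with the set term and centring 2, and with 1 library left out as well 0 to 10, as given above. The labels do not say whether equal replicate numbers pair the samples. Same-numbered deviations correlated at 0.19, -0.26 and 0.38. These values cannot decide it, because the correlations also went with the 2 sets of libraries. KDM5-C70 1 was positive only with DMSO 1 and DMSO 2, and KDM5-C70 2 and 3 only with DMSO 3. The block on 3 numbers gave a median log2 change of 0.23 and an inner share difference of -11.5 points. KDM5-C70 3 correlated best with its own number, and KDM5-C70 1 and 2 did not. The 15 regions whose groups did not overlap became 49 for inner segments only (3.09%, against 2.27% of all shared regions), 99 after centring (6.25%, against 6.36%), and 16 to 551 with 1 library left out (1.01 to 34.8%, against 1.74 to 40.8%). Of 166 alternative values of named regions, 5 turned negative, all for inner segments only: -0.057 on chromosome 12 (70758723), -0.24 on 4 (183837735), -0.18 on 5 (33439858), -0.33 on 13 (60737189) and -0.035 on 14 (59104275). The cause was not tested. Unknown depth limits every width, and the 3 shortest lists have the narrowest regions.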

Other observations

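Isolated regions whose width barely varied were looked up after the values were seen. After the region on chromosome 9 described above, the steadiest lay on chromosome 15 (28834130 to 28835278), followed by the wide region on chromosome 6. The one on chromosome 15 had 1020, 997 and 1015 bp in KDM5-C70 1 to 3 and 1079, 995, 1065, 945 and 1037 bp in DMSO 1 to 5. Next, another region of chromosome 15 (85523450 to 85525795) was called at 1956 to 2186 bp, and one of chromosome X (108297291 to 108297891) at 516 to 601 bp, over the 8 libraries.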
